A study of Mus musculus with 5 samples.

Results

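Ligands of the tumour necrosis factor (TNF) superfamily were examined in group 2 innate lymphoid cells (ILC2s) of mouse lung with and without the cytokine IL-33. The set held 10 genes chosen by name: Tnf, Lta, Ltb, Tnfsf14, Tnfsf10, Fasl, Tnfsf4, Tnfsf8, Cd40lg and Tnfsf11, of 22180 genes that had a probe set with a single gene symbol. Each was measured by 1 probe set, so the rule of taking the probe set with the highest mean over the 5 arrays left no choice to make. The set was drawn up when the knockout differences of Tnf, Ltb and Tnfsf10 were already known. The p-values given for the members, and the counts of members that were lower, are therefore no independent evidence.

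ILC2s are tissue lymphocytes without antigen receptors that release type 2 cytokines when epithelial and stromal cells give off alarmins, of which IL-33 is one. TNF superfamily ligands are trimeric proteins made on the cell surface, and some are cut loose by proteases. Through receptors with or without a death domain they start NF-kB signalling, cell death or costimulation of neighbouring cells.

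Both genotypes were studied as ILC2s taken from the lungs of naive adult male mice: 3 arrays of wild-type cells and 2 arrays of cells from IL-33 knockout mice, with no treatment named for either. Each array is a biological replicate by its title. For the strain, the Il33 allele, the sorting gate and the number of animals behind an array, nothing is stated in the sources used here. The values are log2 signals of Affymetrix probe sets, 41345 on each array, with a median between 4.29 and 4.33. The signal of the median gene was 4.48. Precision is limited by the small number of arrays. Signals of different probe sets do not rank their transcripts by abundance, so genotypes were compared within a gene. Percentiles, the signal of the median gene and list means place a signal only roughly.

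The targeted gene, Il33, read 3.36, 3.39 and 3.32 in wild type and 3.79 and 3.95 in knockout. These signals lie below that of the median gene in both genotypes, and where its probes lie relative to the deleted part was not given, so the probe set checks no label. Both knockout arrays stood apart in other ways. Knockout replicate 2, labelled male, had an Xist signal of 7.91 against 2.35 to 3.10 on the other 4 arrays. The Y-linked Eif2s3y was at 6.14 there and at 6.82 to 7.62 elsewhere, and Kdm5d at 4.79 against 5.57 to 5.63. Uty, also Y-linked, was at 7.17 there against 5.83 to 6.96. Knockout replicate 1 read 8.52 for Bpifa1, an airway secretory gene, against 2.85 to 3.22 on the others. The members' differences are for this reason also given with each knockout array alone.

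Of the 10 ligand genes, 4 had lower signals in both knockout arrays than in every wild-type array: Tnf, Tnfsf10, Tnfsf14 and Ltb. Over all 22180 genes the share lower without overlap of the groups was 5.63%, and it was 8.95% of the 13664 genes with at least 4 distinct values over the arrays. No member was higher without overlap, which held for 11.0% of all genes. By definition these 4 genes also lay below the wild-type range with either knockout array alone. No other member joined them with replicate 1 alone or with replicate 2 alone, where the shares of all genes were 16.8% and 20.5%. With limma, 0 of the 9 members tested and 0.0% of 16635 genes passed an adjusted p of 0.05, so no member is called changed. Nor did a member pass with knockout replicate 1 or 2 as the only knockout array, where 2.41% and 6.47% of genes did. At an unadjusted p below 0.05 there were 3 members, all lower (Tnf, Ltb and Tnfsf10), against 2.59% of genes lower and 5.05% higher at that p. The differences of these 3 genes were known when the set was drawn up. The counts of lower members therefore cannot be read as an enrichment over the shares of all genes. The median difference of the 10 members, knockout minus wild type, was -0.02 on the log2 scale, against 0.04 over all genes. The 6 genes whose groups overlapped differed by -0.04 to 0.27.

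**Figure D1:**
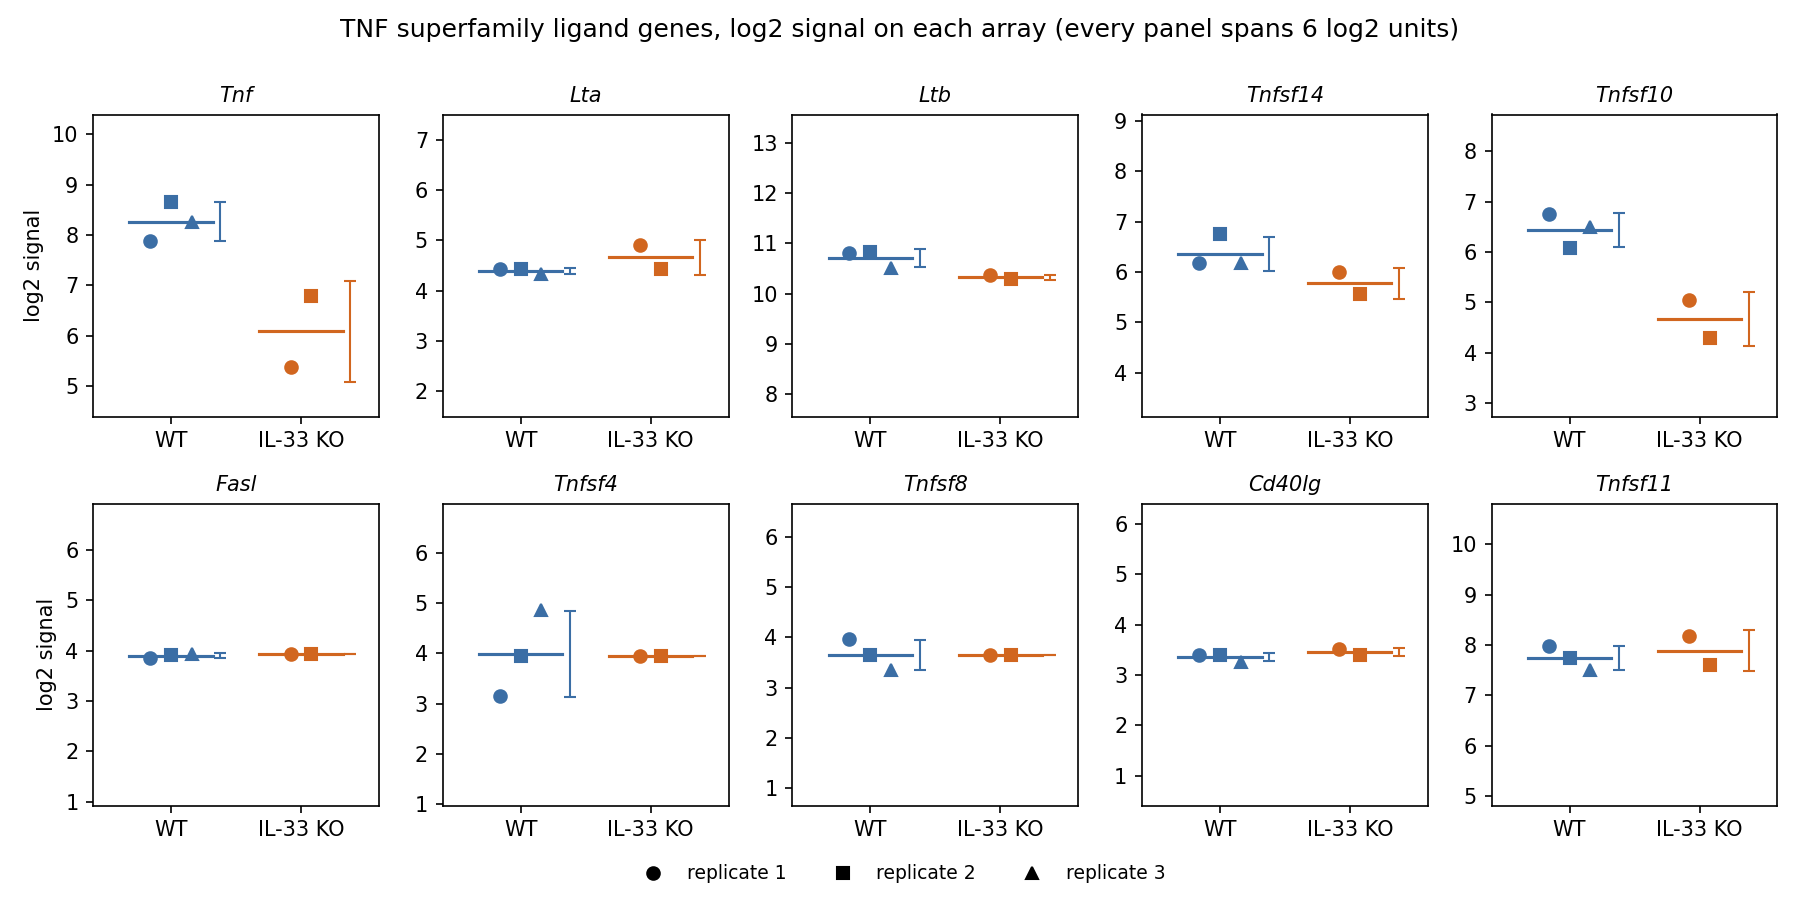
Log2 signal of the 10 ligand genes on each array, wild type in blue (n = 3) and IL-33 knockout in orange (n = 2); horizontal lines are group means and side bars show 1 SD. Tnf, Ltb, Tnfsf14 and Tnfsf10 have no overlap between groups. Fasl, Tnfsf4, Tnfsf8, Lta, Cd40lg and Tnfsf14 each hold identical values on some arrays.

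The 250 bases before the RefSeq transcription start of these 4 genes are shown because their signals were lower together. Sequences are from RefSeq on GRCm38.p6, written 5′ to 3′ on the gene's strand; 8 of the 10 members had an entry. Coordinates are chr17:35202008-35202257 (minus strand) for Tnf, chr17:35194257-35194506 (plus) for Ltb, chr17:57194182-57194431 (minus) for Tnfsf14 and chr3:27316827-27317076 (plus) for Tnfsf10. Capitals mark matches, on either strand, to the kappaB consensus, AP-1 (TGANTCA), the TATA box (TATAAA) and GAS (TTCNNNGAA), the site of STAT factors.
Tnf: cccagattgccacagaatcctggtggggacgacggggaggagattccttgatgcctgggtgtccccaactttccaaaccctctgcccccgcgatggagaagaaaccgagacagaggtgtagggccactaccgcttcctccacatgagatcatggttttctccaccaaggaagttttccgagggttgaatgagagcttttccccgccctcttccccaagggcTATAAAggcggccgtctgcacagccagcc
Ltb: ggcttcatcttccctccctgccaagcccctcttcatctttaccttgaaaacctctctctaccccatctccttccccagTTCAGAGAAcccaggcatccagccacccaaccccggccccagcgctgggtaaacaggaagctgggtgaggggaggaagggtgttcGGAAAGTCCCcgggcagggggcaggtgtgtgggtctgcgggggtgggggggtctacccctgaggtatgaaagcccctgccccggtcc
Tnfsf14: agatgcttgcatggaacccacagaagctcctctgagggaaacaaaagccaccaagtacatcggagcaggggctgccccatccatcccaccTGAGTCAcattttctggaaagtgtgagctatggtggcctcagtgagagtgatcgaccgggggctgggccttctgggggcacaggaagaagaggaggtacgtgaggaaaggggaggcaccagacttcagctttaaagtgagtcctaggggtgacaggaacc
Tnfsf10: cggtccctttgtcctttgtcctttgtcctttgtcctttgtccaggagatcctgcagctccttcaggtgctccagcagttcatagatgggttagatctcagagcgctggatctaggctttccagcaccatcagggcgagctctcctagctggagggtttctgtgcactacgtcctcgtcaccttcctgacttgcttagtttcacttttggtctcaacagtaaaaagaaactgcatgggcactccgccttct

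The letters of the 4 windows held different matches. Ltb had the kappaB consensus, at positions -87 to -78 relative to the start, as did 3.9% of 32851 promoters of the same length. Of the 8 member promoters no other had a match. Tnf had a TATA box at positions -29 to -24, which 12.4% of all promoters held anywhere in the window. Tnfsf14 had an AP-1 match, found in 6.75% of all promoters, and Ltb also a GAS match, found in 7.02%. Tnfsf10 matched none of these motifs. The NFAT core (GGAAA, not capitalised; the kappaB match of Ltb overlaps one) was present in all 8 member promoters and in 55.6% of all promoters. No match was common to these 4 genes beyond the short NFAT core. A match is a string of letters and not a bound site.

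Tnf encodes the founding cytokine of the family, which acts on TNFR1 and TNFR2. Its probe set, 17344309, read 7.88, 8.65 and 8.27 in wild type and 5.38 and 6.80 in knockout. Both knockout arrays lay at least 1.08 log2 units below the lowest wild-type array, and they differed from each other by more than the wild-type arrays did. The difference was -2.18 (SE 0.53), a signal 4.52-fold higher in wild type, with a 95% interval of -3.67 to -0.68 that is not corrected for the number of genes. With limma the unadjusted p was 0.0158 and the adjusted p 0.514. Against the wild-type mean, knockout replicate 1 alone differed by -2.89 and replicate 2 alone by -1.47, with limma adjusted p of 0.121 and 0.21. The lowest signal, 5.38, was still above that of the median gene.

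Lta and Ltb encode the lymphotoxins, which pair on the cell surface as a heterotrimer that signals to the lymphotoxin beta receptor in lymphoid tissue. Lta, next to Tnf on chromosome 17, read 4.42, 4.42 and 4.33 in wild type and 4.90 and 4.42 in knockout. The groups overlapped: knockout replicate 2 held the same value as 2 wild-type arrays. The difference of 0.27 (SE 0.17, limma adjusted p 0.623) was 0.51 with knockout replicate 1 alone and 0.03 with replicate 2 alone. Lta thus rested on 1 array, at a signal near that of the median gene.

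Ltb, on the other side of Tnf, measured by probe set 17337024, lay at or above the 99.4th percentile of genes on every array. It read 10.80, 10.83 and 10.51 in wild type and 10.36 and 10.29 in knockout. The groups did not overlap, but the gap between them, 0.14, was smaller than the range of the wild-type arrays. The difference was -0.39 (SE 0.12), 1.31-fold higher in wild type, with a 95% interval of -0.74 to -0.04. The limma unadjusted p was 0.038 and the adjusted p 0.598. It changed little with the array used, at -0.35 for knockout replicate 1 and -0.42 for replicate 2. The 3 genes of this cluster thus differed in size and sign: a wide negative difference for Tnf, a narrow one for Ltb, and a higher value for Lta on 1 array.

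Tnfsf14 encodes LIGHT, a ligand of the lymphotoxin beta receptor and of HVEM. Its probe set, 17346522, read 6.17, 6.74 and 6.17 in wild type and 5.99 and 5.55 in knockout. The knockout arrays lay 0.17 and more below the lowest wild-type signal, which 2 wild-type arrays shared. The difference was -0.59 (SE 0.26), with a 95% interval of -1.33 to 0.16 and a limma adjusted p of 0.623. It was -0.37 with knockout replicate 1 alone and -0.81 with replicate 2 alone.

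Tnfsf10 and Fasl encode the death ligands TRAIL and Fas ligand, which trigger apoptosis through death domain receptors. Tnfsf10 (probe set 17396383) read 6.75, 6.07 and 6.49 in wild type and 5.04 and 4.29 in knockout. The gap between the groups was 1.03 log2 units, and the signal of knockout replicate 2 lay below that of the median gene. The difference was -1.76 (SE 0.33), 3.4-fold higher in wild type, with a 95% interval of -2.70 to -0.83. The limma unadjusted p was 0.00669, the smallest of the members, and the adjusted p 0.443. Knockout replicate 1 alone gave -1.39 and replicate 2 alone -2.14, with limma adjusted p of 0.26 and 0.109. The order of the knockout arrays was the reverse of that for Tnf: replicate 1 was the lower for Tnf, and replicate 2 for Tnfsf10, Tnfsf14 and Ltb.

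Fasl read 3.86, 3.92 and 3.94 in wild type and 3.94 in both knockout arrays, below the median gene on all 5. The difference was 0.03 (SE 0.05), with a 95% interval of -0.10 to 0.17 and a limma adjusted p of 0.759, and its sign turned after quantile normalization or median centring. The death ligands therefore gave unlike values: a wide difference for Tnfsf10, with no overlap, and a narrow one with overlap for Fasl. The difference between the 2 genes was not itself tested.

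**Figure D2:**
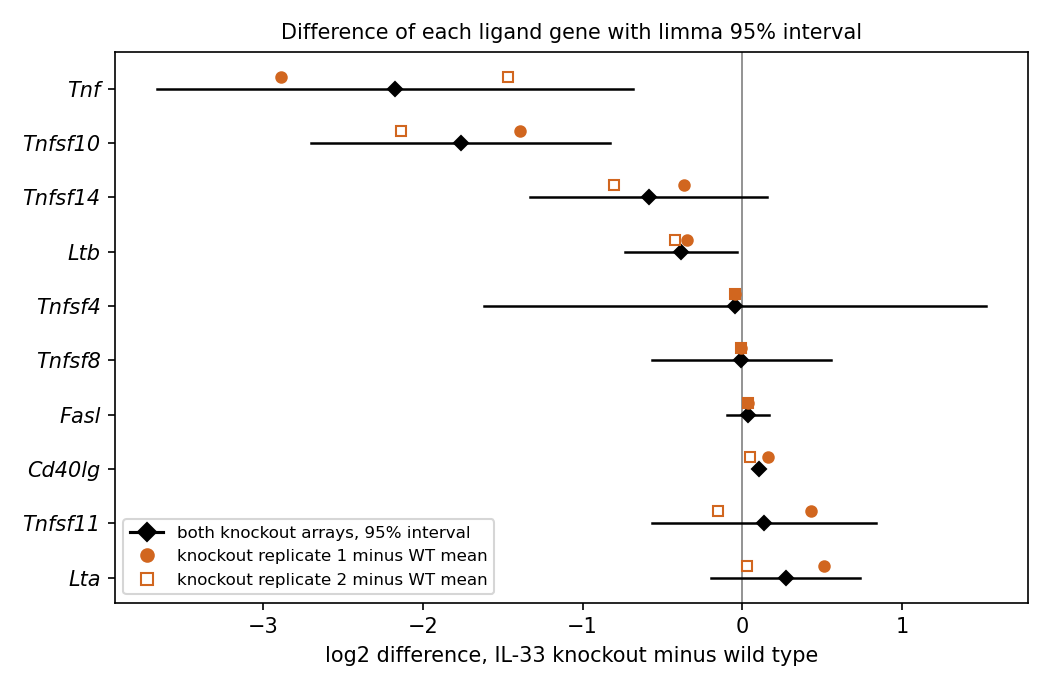
Log2 difference of each ligand gene, IL-33 knockout minus wild type, with limma's 95% interval (black) and each knockout array against the wild-type mean (orange). Both arrays lie below 0 for Tnf, Tnfsf10, Tnfsf14 and Ltb; Cd40lg has no interval because its signal was under the filter.

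The costimulatory ligands gave signals below the median gene on most arrays. Tnfsf4 encodes OX40 ligand, which supports T cells and which lung ILC2s are known to display under IL-33. Its signals were 3.16, 3.94 and 4.86 in wild type and 3.94 in both knockout arrays. The wild-type arrays spanned the knockout value on both sides. The difference was -0.04 (SE 0.56), and the 95% interval of -1.62 to 1.53 leaves room for a difference of more than 1 log2 unit either way. Without wild-type replicate 3 it was 0.39.

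Tnfsf8, the gene of CD30 ligand, read 3.96, 3.65 and 3.36 in wild type and 3.65 in both knockout arrays, a difference of -0.01 (SE 0.20). It was 0.15 without wild-type replicate 1. Cd40lg, the gene of CD40 ligand, through which T helper cells license B cells, read 3.41, 3.41 and 3.26 in wild type and 3.52 and 3.41 in knockout. For both genes the groups overlapped. Cd40lg had a mean of 3.40 and fell under the filter at 3.56 that left out the dimmest 25% of genes, so its difference of 0.11 (0.16 and 0.05 with knockout replicate 1 and 2 alone) has no p. Tnfsf8, with a mean of 3.65, was the member just inside the filter. For Tnfsf4, Tnfsf8 and Fasl the knockout arrays held exactly equal values, so that each array alone gave the same difference and the SD of 0.0 is no measure of error. Of the 10 members 4 had a different value on every array, as had 33.7% of all genes.

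Tnfsf11 encodes RANKL, known for bone resorption and lymph node formation. It read 7.99, 7.75 and 7.51 in wild type and 8.18 and 7.59 in knockout, at or above the 92.5th percentile of genes on each array. The groups overlapped, with one knockout array above and one inside the wild-type range. The difference was 0.14 (SE 0.25), with a 95% interval of -0.56 to 0.84 and a limma adjusted p of 0.818. It was 0.43 with knockout replicate 1 alone and -0.15 with replicate 2 alone.

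Among 13 genes of the receptors of these ligands, 9 had differences above 0 and 4 below, with a median of 0.12, and none passed. Without overlap 2 were higher and none lower, against 11.0% and 5.63% of all genes. Tnfrsf1a, the gene of TNFR1, read 3.75, 3.98 and 3.98 in wild type and 4.21 and 4.50 in knockout, a difference of 0.45 (limma adjusted p 0.564). These signals lay below the median gene's 4.48 on all arrays but knockout replicate 2. Tnfrsf10b, the gene of the mouse TRAIL receptor, read 5.88, 7.06 and 7.02 in wild type and 8.25 and 7.15 in knockout. Its difference of 1.04 opposed in sign that of its ligand gene, Tnfsf10, with a limma adjusted p of 0.623. Knockout replicate 2 exceeded the highest wild-type array only narrowly. The groups overlapped for the other 11. Tnfrsf1b, the gene of TNFR2, differed by 0.14, and Ltbr and Tnfrsf14, whose products bind lymphotoxin and LIGHT, by 0.01 and -0.39. The TRAIL decoy receptor genes Tnfrsf22 and Tnfrsf23 differed by 0.15 and 0.04 and Fas by -0.28. Tnfrsf4 and Tnfrsf8, the receptor genes of OX40 ligand and CD30 ligand, differed by 0.22 and 0.12, and Cd40 by -0.17. For Tnfrsf4 the difference was 0.97 with knockout replicate 1 alone and -0.53 with replicate 2 alone. For RANKL, the receptor gene Tnfrsf11a differed by -0.30 and the soluble decoy gene Tnfrsf11b by 0.23.

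Of 8 further ligand genes, 6 had a probe set of their own, 3 were above the filter and none passed or lay outside the wild-type range in both knockout arrays. Tnfsf9 (4-1BB ligand), Tnfsf13b (BAFF) and Tnfsf15 (TL1A, a known activator of ILC2s) differed by 0.45, 0.44 and 0.15. Tnfsf18, Cd70 and Eda were under the filter. The 4 genes of ligand shedding lay within the wild-type range on at least 1 knockout array. Adam17, whose protease frees TNF from the cell surface, differed by 0.06, Adam10 by -0.20, and the iRhom genes Rhbdf1 and Rhbdf2, partners of that protease, by -0.13 and -0.12.

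Downstream, 19 of 23 listed adaptor and NF-kB genes had a probe set of their own. Of these 13 had differences below 0, with a median of -0.15, and none passed. Lower without overlap were 2 of them, Nfkb2 and Ikbkb, an NF-kB subunit and an IkB kinase gene, by -0.37 and -0.48 (limma adjusted p 0.623 for both), where 5.63% of all genes were lower without overlap. Both differences rest mainly on knockout replicate 2: with replicate 1 alone they were -0.11 and -0.06, and with replicate 2 alone -0.63 and -0.91. Map3k7 and Traf1 differed by -0.26 and -0.15, with knockout replicate 1 at a wild-type value. Of 13 NF-kB target genes, 8 were below 0, with a median of -0.17, and none passed. Cxcl2, a neutrophil chemokine gene, read 8.01, 8.20 and 8.09 in wild type and 7.71 and 7.92 in knockout, a difference of -0.28. Nfkbie, an NF-kB inhibitor gene, differed by -0.45 and Icam1, an adhesion gene, by -0.30, also without overlap. Lower without overlap were thus 3 of the 13, against 5.63% of all genes. Nfkbiz, at -0.38, had 1 knockout array at a wild-type value. The mean of the target list was 7.25 to 7.33 in wild type, 7.36 in knockout replicate 1 and 6.94 in replicate 2.

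Factors that control Tnf mRNA in the cytoplasm went both ways, with 3 of 9 above 0, 6 below and none passing. Zfp36, the gene of tristetraprolin, which marks Tnf mRNA for decay, differed by -0.01. That value is the mean of 0.31 in knockout replicate 1 and -0.32 in replicate 2. The wild-type arrays read 10.89, 10.90 and 10.90, 2 of them at exactly the same value. Their SD of 0.0073 is therefore a poor measure of error for either shift. Its relatives Zfp36l1 and Zfp36l2 differed by 0.32 and 0.45, the latter higher in both knockout arrays than in any wild-type array. Rc3h1, the gene of the decay factor roquin, differed by -0.46 without overlap, and Tia1, a translational silencer gene, by -0.28. Without overlap 1 of the 9 was thus higher and 1 lower, against 11.0% and 5.63% of all genes.

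**Figure D3:**
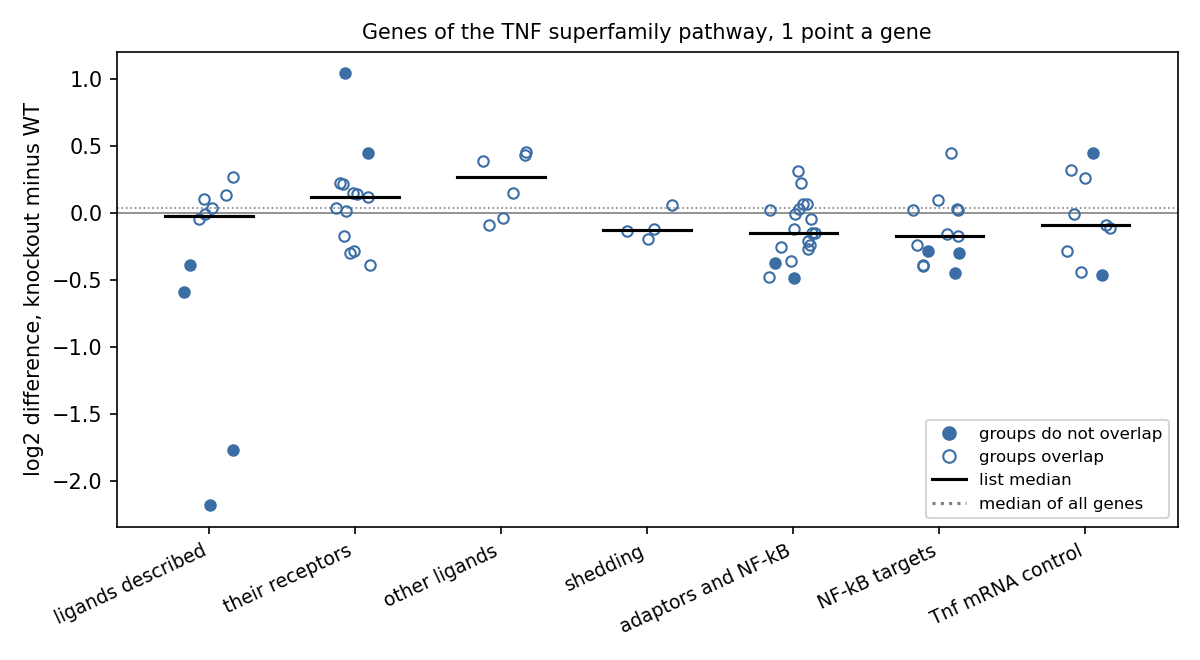
Log2 differences, IL-33 knockout minus wild type, of the measured genes of 7 lists, 1 point a gene; filled points are genes whose groups do not overlap, black lines are list medians and the dotted line is the median of all genes, 0.04. Tnf and Tnfsf10, at -2.18 and -1.76, lie farthest from 0 of all points shown.

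The labelled cell type was checked against its markers. Il7r, Gata3 and the other ILC2 genes with a probe set of their own, 13 of 15 listed, had a mean signal of 8.53 to 8.67 in wild type and of 8.43 and 8.55 in knockout. Il7r read 11.26 to 11.38 and 11.45 and 11.44. Of the 13 ILC2 genes, 10 had differences below 0, with a median of -0.23, and none passed in limma. Without overlap 3 were higher (Icos, Il7r and Rora) and 2 lower (Nmur1 and Il17rb), against 11.0% and 5.63% of all genes. Icos, a costimulatory receptor gene, read 7.07, 7.08 and 7.28 in wild type and 8.28 and 8.55 in knockout, a difference of 1.27 (limma adjusted p 0.402). Nmur1, the neuromedin U receptor gene, differed by -0.56 and Il17rb, a gene of the IL-25 receptor, by -0.23. B cell, NK cell and ILC1, and ILC3 lists had means of 3.02 to 4.25 on all arrays, with no gene outside the wild-type range in both knockout arrays.

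Markers of cells that make these ligands were compared array by array. Myeloid cells make much Tnf, and their list had means of 3.68 to 4.23 in wild type and 3.96 on both knockout arrays. Lyz2, a macrophage and neutrophil gene, read 5.58 in wild-type replicate 2, the array with the highest Tnf. It read 2.98 and 2.47 in the other wild-type arrays. Cd68, Marco and Siglecf were also highest in wild-type replicate 2, at 5.06, 4.22 and 4.08. Adgre1 shared its highest value with other arrays, and Itgax, Csf1r and Chil3 were highest in a knockout array. Whether these signals bear on Tnf was not tested. Of the 8 myeloid genes 6 were above 0. Csf1r and Chil3 were higher without overlap, by 0.28 and 0.21, where 11.0% of all genes were. T cells make much Ltb, and Cd3e read 5.44, 5.44 and 5.86 in wild type and 4.88 and 5.34 in knockout, a difference of -0.47 without overlap. Cd3d and Cd3g, the other CD3 chain genes, differed by -0.44 and -0.24 with overlap, Cd3g at signals of 9.10 to 9.74. The remaining 5 of the 8 T cell genes were above 0. Of these Cd8a, at signals of 3.41 to 4.16, was higher without overlap, by 0.48. Shares of all genes lower and higher without overlap were 5.63% and 11.0%. The T cell list as a whole had means of 5.08 to 5.12 and 5.06 on both knockout arrays.

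Lists of structural lung cells had higher means in both knockout arrays. The epithelial list, 8 genes, had means of 4.38 to 4.58 in wild type and 5.87 and 4.92 in knockout. Higher without overlap were 3 genes (Epcam, Sftpc and Scgb1a1), against 11.0% of all genes. Knockout replicate 1 read 8.81 for Scgb1a1 and 8.52 for Bpifa1. In all 6 genes were above 0, Krt8 only by 0.02, while Cdh1 and Krt18 were at -0.26 and -0.05. The endothelial list, 6 genes, had means of 4.93 to 5.06 and of 5.26 and 5.65. Without overlap 2 were higher (Cdh5 and Cldn5, by 1.44 and 1.59) and Kdr lower, against 11.0% and 5.63% of all genes. Pecam1 and Tie1 each differed by 0.09 and Tek by -0.17, with overlap. The part of myeloid, T, epithelial and endothelial cells in the lower signals of the 4 ligand genes was not tested. In such bulk samples fewer cells of a type and less RNA per cell cannot be told apart.

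**Figure D4:**
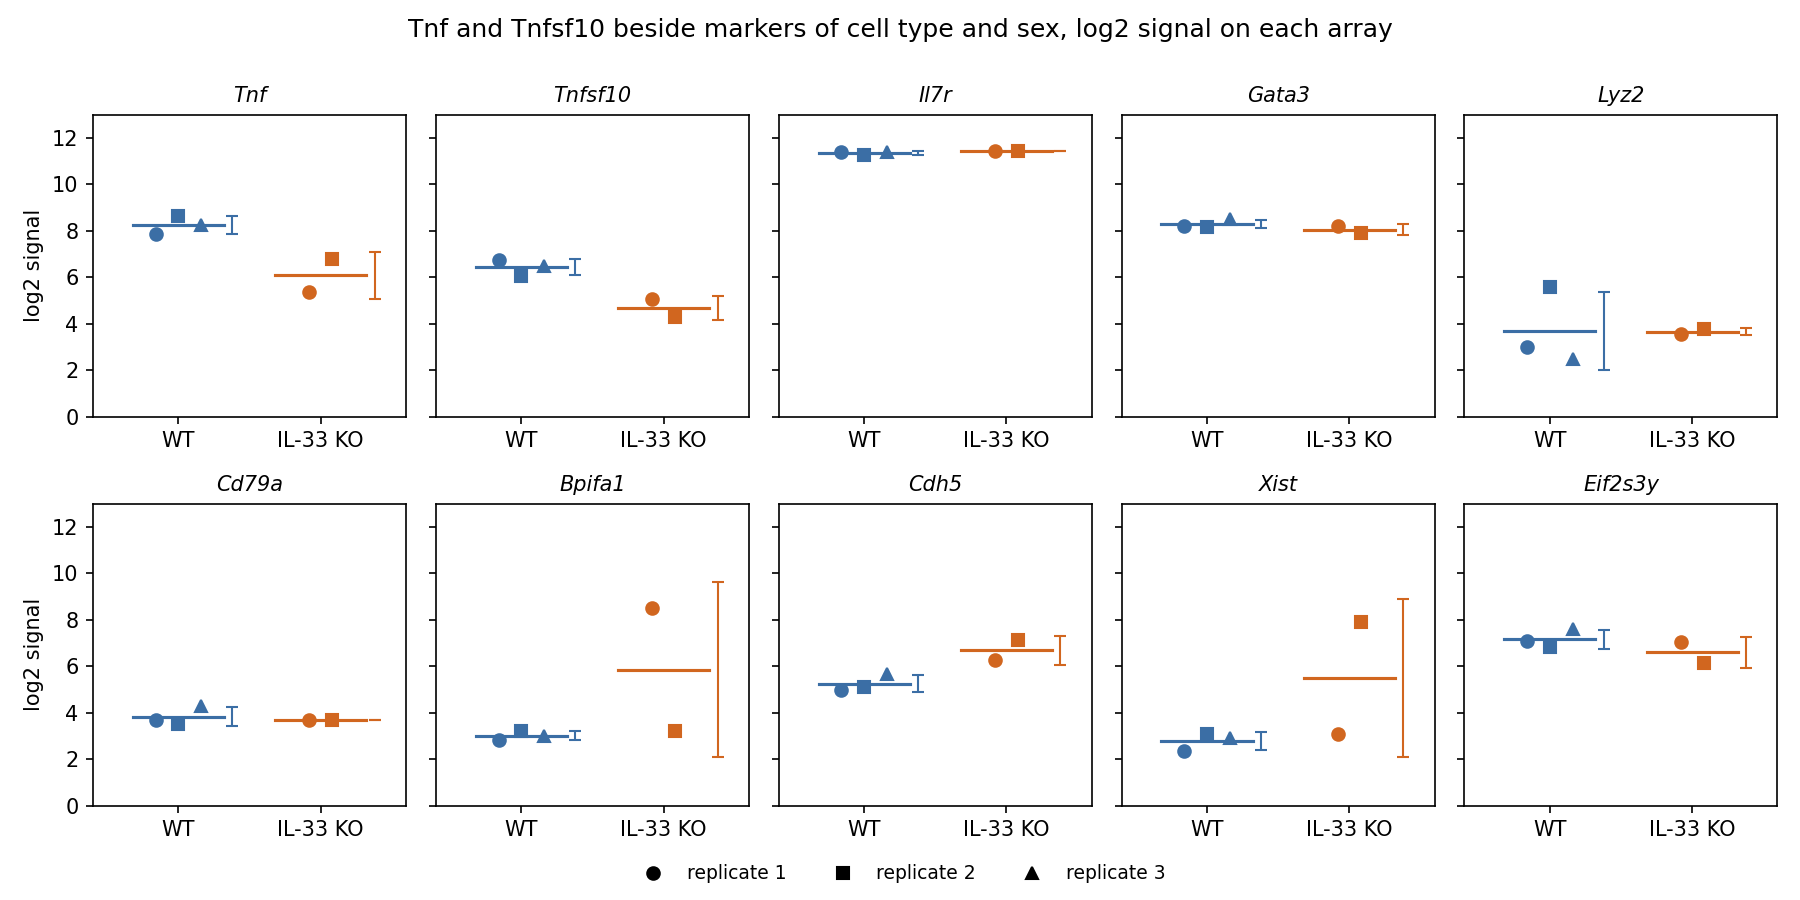
Log2 signal of Tnf and Tnfsf10 beside ILC2 genes (Il7r, Gata3), markers of myeloid cells (Lyz2), B cells (Cd79a), airway epithelium (Bpifa1) and endothelium (Cdh5) and the sex check genes Xist and Eif2s3y; lines are group means, side bars 1 SD (wild type n = 3, knockout n = 2). Bpifa1 is high in knockout replicate 1 only and Xist in replicate 2 only, while Tnf and Tnfsf10 are lower in both.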

How the data were processed

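Total RNA of lung ILC2s was extracted with Trizol and labelled with biotin for Affymetrix arrays, per the labels' protocols. The authors deposited log2 signals of 41345 probe sets, with Affymetrix Expression Console and RMA named in the submitters' processing notes; no version, setting or build is stated in the sources used here. RMA usually equalises the arrays, which hides a shift of all transcripts. Of the probe sets, 23521 had 1 symbol in the platform annotation, 1814 several and 16010 none. For each of 22180 genes the brightest probe set by mean was kept, and the 25% with the lowest mean were left out (16635 tested). The genotype test used limma 3.58.1 under R 4.3.3 (lmFit, eBayes, Benjamini-Hochberg over all genes tested, threshold 0.05, no block). Its estimated differences were checked on simulated normal values without ties, which does not test the p-values for these data.

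The members, gene lists and tests were chosen with earlier results of these data known. Named were all members and receptors, up to 4 genes of each other pathway list by smallest p, some of the genes next to a member, and markers. Outside that rule, Zfp36, whose p was the largest of its list, and the further ligand genes under the filter were also named. Cell lists were ILC2, T, NK and ILC1, ILC3, B, myeloid, epithelial, endothelial and sex check genes. Gene order came from RefSeq GRCm38.p6. Alternatives covered the filter, probe sets, normalization, variance model, array weights, a replicate block, leaving out each array and a threshold of 0.1. The p-values set each difference against the spread between these arrays, which limma draws towards that of all genes tested. How many animals each holds was not given.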

Additional observations from a re-analysis of the deposited data

How the results depend on the processing

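No member passed an adjusted p of 0.05 with limma under any alternative run, nor 0.1 with all 5 arrays. The members below every wild-type array were the same 4 genes after quantile normalization or median centring, checks added after seeing the data. So was leaving out either knockout array: the 4 genes had to remain by definition, and no other member joined them. The difference of Tnf ranged from -2.89 to -1.47 over the alternatives, that of Tnfsf10 from -2.14 to -1.39, that of Tnfsf14 from -0.81 to -0.37 and that of Ltb from -0.49 to -0.33. Their limma adjusted p ranged from 0.109 to 0.877.

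Differences near 0 changed sign, and the cause was not tested. Fasl was at -0.0238 after quantile normalization and at -0.0236 after median centring. Leaving out 1 array in turn, Tnfsf4 ranged from -0.46 to 0.39, Tnfsf8 from -0.15 to 0.15 and Tnfsf11 from -0.15 to 0.43. Over all genes, leaving out 1 array gave 0 to 1077 calls: 1077 (6.47%) without knockout replicate 1 and 401 (2.41%) without replicate 2, none of them a member. There the spread of the lone knockout array was assumed to equal that of wild type.

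With the replicate block, wild-type replicate 3 being unpaired, limma also called 0 genes, Tnf differed by -2.18 and Tnfsf4 by 0.39. By their titles, same-numbered arrays share only a number. The correlation of their deviations from the group means was -0.045 for number 1 and 0.123 for number 2. With 2 knockout arrays, the deviations of one mirror those of the other. The 2 values are thus not separate checks and cannot decide whether same-numbered arrays were handled together.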

Other observations

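Some of the measured genes next to members on their chromosomes are given by their values, not all of them. The neighbours left out had groups that overlapped. Among these, Akap11, next to Tnfsf11, differed by -0.26 and Gm14718, next to Cd40lg, by -0.39. Atp6v1g2, Fndc3b and Dgkh, each the second measured gene from a member, differed by 0.03, -0.04 and 0.11. Beside Tnfsf10, Nceh1 and Ghsr differed by 0.05 and 0.04 log2 units, knockout minus wild type. Nfkbil1, beyond Lta, differed by 0.25 and Lst1, beyond Ltb, by 0.19, both with overlap of the groups, beside -2.18 for Tnf and -0.39 for Ltb. On chromosome 17, Gpr108, a gene of a predicted receptor and the second measured gene after Tnfsf14, read 7.38, 7.63 and 7.53 in wild type and 6.97 and 6.78 in knockout. Its difference was -0.64 (limma adjusted p 0.423), and Trip10, which lies between them, differed by -0.08 with overlap.

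Beside Cd40lg on the X chromosome, Arhgef6 read 6.69, 6.38 and 6.69 in wild type and 7.06 and 7.34 in knockout. Rbmx, an RNA-binding protein gene that follows it, read 7.63, 7.85 and 7.995 and then 8.24 and 8.39. Both lay higher without overlap, by 0.61 and 0.49 (limma adjusted p 0.518 and 0.545), and 11.0% of all genes did so. Cd40lg itself gave signals of 3.26 to 3.52 on all 5 arrays. Suco, next to Fasl, differed by 0.83, with 1 knockout array at a wild-type value.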
